A study of Mus musculus with 36 samples.

Results

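The 9 genes Gadd45a, Gadd45b, Gadd45g, Plk2, Plk3, Btg1, Btg2, Ier3 and Noct were taken by symbol as genes known for growth arrest and early stress responses, and each symbol matched 1 Ensembl identifier among the 78239 genes counted. They were chosen with earlier results of these data known, so the list is not independent of the values below. The mice were wild-type C57BL/6NCrl males aged 8, 10 or 12 weeks, and polyA RNA of their livers, kidneys and hearts was sequenced, with 4 biological replicates in each of the 9 groups and 36 libraries in all. The animals carried no engineered allele and received no test agent, were fed chow under a 12 h light and dark cycle, and were anaesthetized with ketamine and xylazine before the organs were taken. Each library holds RNA of a piece of whole organ, and the labels do not say whether a liver, a kidney and a heart with the same replicate number came from 1 mouse.

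The Gadd45 proteins are small nuclear proteins induced by DNA damage and other stress. They bind and activate the kinase Map3k4 upstream of p38 and JNK, and they also bind the replication clamp Pcna, the inhibitor p21 and the mitotic kinase Cdk1. Plk2 and Plk3 are stress-induced Polo-like kinases that, unlike Plk1, do not drive mitosis. Btg1 and Btg2 slow proliferation and recruit the CCR4-NOT complex, which shortens poly(A) tails of mRNAs. Ier3 is an early response protein that modulates NF-kB signalling and cell survival, and Noct encodes nocturnin, a rhythmically expressed relative of the CCR4 nucleases that dephosphorylates NADPH. Transcripts of this kind are short-lived and respond quickly to hormones, feeding and handling, and in liver and kidney several are also known for daily rhythms.

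In the GRCm39 assembly, as Ensembl annotates it, all 9 are protein-coding genes. The Gadd45 family comprised Gadd45a (ENSMUSG00000036390, chr6:67012070-67014441, minus strand), Gadd45b (ENSMUSG00000015312, chr10:80764523-80768038, plus) and Gadd45g (ENSMUSG00000021453, chr13:52000714-52002508, plus). The Polo-like kinase genes were Plk2 (ENSMUSG00000021701, chr13:110531015-110537379, plus) and Plk3 (ENSMUSG00000028680, chr4:116985852-116991226, minus). The BTG genes were Btg1 (ENSMUSG00000036478, chr10:96452861-96458671, plus) and Btg2 (ENSMUSG00000020423, chr1:134002908-134015033, minus). Ier3 (ENSMUSG00000003541) lay at chr17:36132568-36133815 on the plus strand and Noct (ENSMUSG00000023087) at chr3:51128616-51159065 on the plus strand.

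Levels are given as CPM, counted read pairs scaled to a common library size by TMM over the 36 libraries, whose depth ranged from 21031599 to 33637390 counted pairs. Markers of the labelled organ were high in their own organ, with summed levels of at least 90686 CPM for 5 hepatocyte genes in liver, 18160 CPM for 5 tubule genes in kidney and 42398 CPM for 5 muscle genes in heart. In the other organs these sums reached at most 166 CPM for hepatocyte, 6.69 CPM for tubule and 1.30 CPM for muscle genes. Red cell genes lay between 185 and 813 CPM in heart and between 137 and 242 CPM in liver, and brown fat genes ranged from 0.142 to 32.1 CPM among the kidneys. Macrophage genes spanned 79.3 to 153 CPM in the 8-week livers, 169 to 264 CPM at 10 weeks and 99.1 to 113.2 CPM at 12 weeks. Their part in the values of the 9 genes was not tested, and in whole organs fewer cells of a type and less RNA per cell cannot be told apart.

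Counts that ignore strand drop pairs lying on a pair of overlapping genes, and this touched some of the genes unequally. Summing the 2 strand columns, which keeps such pairs, gave 2.16, 2.05 and 1.97 times as many pairs for Gadd45a in liver, kidney and heart, where the lncRNA E230016M11Rik runs antisense through its exons. The same ratio was 1.57, 1.90 and 1.58 for Ier3, which overlaps Gm66231, and between 1.13 and 1.19 for Plk3 and Btg2. It did not exceed 1.02 for the remaining 5 genes. The libraries carry no strand information, so pairs of a gene and of its antisense partner cannot be told apart and the absolute levels of Gadd45a and Ier3 are uncertain.

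Promoter sequences are shown for Gadd45a and Ier3, which passed a test of age or of its difference between tissues, and for Plk3 and Gadd45g, which had lower kidney levels after 8 weeks at an unadjusted p under 0.05. Noct met the latter condition too, but its window, like those of Gadd45b and Plk2, had no bases left after exons were taken off. The sequences are the RefSeq windows of 250 bases before the start, taken from a GRCm38.p6 table, each with 1 exact match in GRCm39, and bases that the Ensembl annotation of GRCm39 places in an exon of the gene were left off. Capitals mark matches on either strand to 5 short motifs. These are the E-box CACGTG, bound by clock and Myc family factors, and the core of the cAMP response element, which reads TGACG. The others are the GC box with the letters GGGCGG, the TATA box with the letters TATAAA, and the box named for its letters CCAAT. Gadd45a lies on chromosome 6 on the minus strand with the window at chr6:67014442-67014641, and Plk3 on chromosome 4 on the minus strand with chr4:116991227-116991410. Gadd45g lies on chromosome 13 on the plus strand with chr13:52000461-52000710, and Ier3 on chromosome 17 on the plus strand with chr17:36132355-36132567.
Gadd45a: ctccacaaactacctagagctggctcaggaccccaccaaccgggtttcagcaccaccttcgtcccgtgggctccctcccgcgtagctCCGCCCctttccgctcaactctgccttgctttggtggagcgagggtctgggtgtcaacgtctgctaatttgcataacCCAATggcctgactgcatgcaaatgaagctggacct
Plk3: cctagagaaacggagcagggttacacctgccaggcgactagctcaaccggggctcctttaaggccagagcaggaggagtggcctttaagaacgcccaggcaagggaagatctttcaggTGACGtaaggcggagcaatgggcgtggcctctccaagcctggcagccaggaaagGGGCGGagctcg
Gadd45g: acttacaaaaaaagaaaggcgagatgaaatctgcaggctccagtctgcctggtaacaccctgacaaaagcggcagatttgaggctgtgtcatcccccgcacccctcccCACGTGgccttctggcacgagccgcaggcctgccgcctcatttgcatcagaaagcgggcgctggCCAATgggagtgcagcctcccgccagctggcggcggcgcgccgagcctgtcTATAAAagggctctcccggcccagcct
Ier3: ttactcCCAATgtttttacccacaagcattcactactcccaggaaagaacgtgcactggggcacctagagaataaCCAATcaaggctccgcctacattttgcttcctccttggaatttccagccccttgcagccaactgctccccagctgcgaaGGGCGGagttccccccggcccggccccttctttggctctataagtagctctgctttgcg

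Over the full 250 bases of all 9 genes, the E-box letters were found in Gadd45b and Gadd45g, and in 6.02% of 32851 mouse promoters. TGACG was present in Plk2, Plk3, Btg1 and Btg2, against 17.8% of promoters, and its palindrome TGACGTCA, which contains it, in Plk2 and Btg2, against 1.55%. CCAAT was found in 7 of 9 genes (33.9% of promoters), with 4 matches in Noct, the GC box in 7 (32.7%) and TATAAA in 3 (12.4%). A p53 half-site, searched by name, had a match in Gadd45a (7.13% of promoters) and an NF-kB site in Ier3 (7.25%). The AP-1 letters TGANTCA, the D-box TTATGTAA, the STAT letters TTCNNNGAA, and, by name, the glucocorticoid element and the CArG box had no match in the 9 windows. These are matches of letters and not measured binding sites.

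Across the 9 comparisons of ages, made within each tissue with edgeR's quasi-likelihood test and Benjamini-Hochberg adjustment over all genes tested, 1 gene passed an adjusted p of 0.05 in 1 comparison, Ier3 in heart between 8 and 12 weeks. In liver 0 of 9 passed at 12 against 8 weeks, 10 against 8 weeks and 12 against 10 weeks, where 0.239%, 0.0204% and 0.0545% of 14672 genes did. In kidney 0 of 9 passed in the same 3 comparisons, against 0.0567%, 0.929% and 0.482% of 17649 genes. The heart had 1, 0 and 0 of 9, against 4.56%, 1.06% and 0.0396% of 15137 genes. At an unadjusted p under 0.05 the numbers were 2, 2 and 0 of 9 in liver, with 15.1%, 14.3% and 14.1% of all genes, 3, 6 and 2 in kidney, with 11.7%, 16.5% and 16.4%, and 4, 1 and 2 in heart, with 23.4%, 15.8% and 11.7%. With DESeq2 in place of edgeR, the calls over the same comparisons were 1, 2 and 0 in liver, 2, 2 and 0 in kidney and 1, 1 and 0 in heart. DESeq2 called 2.88%, 2.46% and 3.29% of all genes in liver, 0.776%, 3.85% and 3.72% in kidney and 8.39%, 2.42% and 0.469% in heart. All comparisons with 8 weeks in a tissue share the same 4 libraries.

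**Figure D1:**
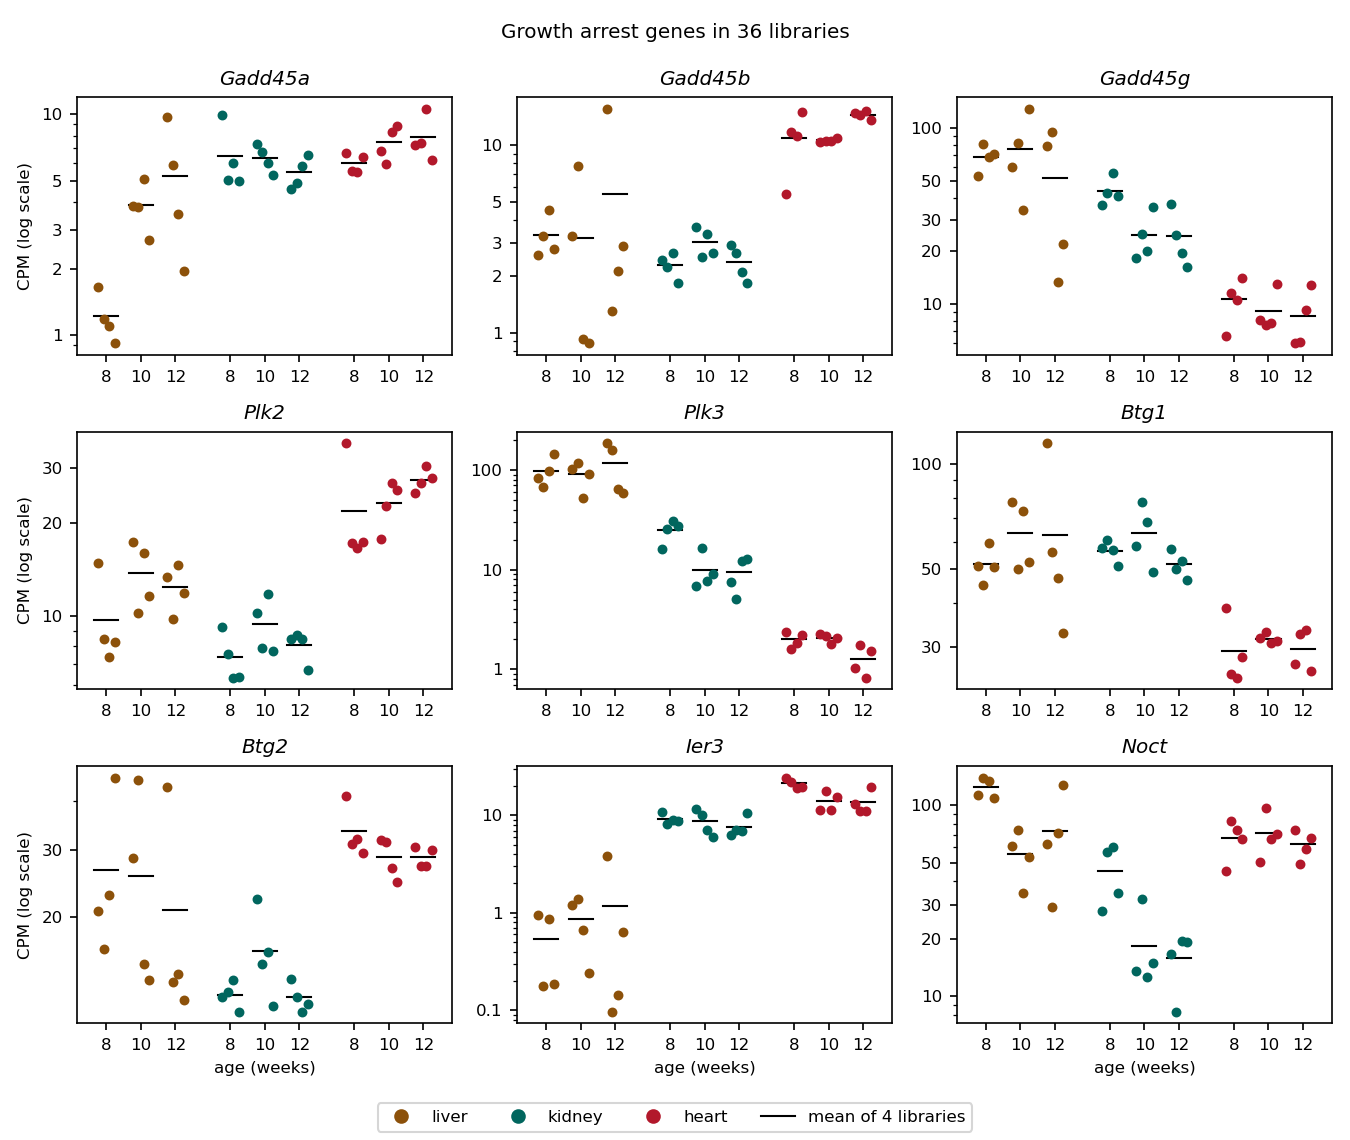
CPM of each of the 9 genes (log axis, scale differing by panel) in every library, by tissue and age in weeks, with a line at the mean of 4 libraries. Liver Gadd45a at 8 weeks lies at or below 1.66 CPM and below every 10- and 12-week liver, and kidney Plk3 and Noct at 8 weeks lie above every 12-week kidney.

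Gadd45a, the p53-responsive member of its family, had the largest log2 fold change of the 9 in liver between 8 and 12 weeks. Its level was 1.66, 1.18, 1.10 and 0.917 CPM in the 8-week livers, 3.84, 3.78, 5.11 and 2.71 CPM at 10 weeks and 9.72, 5.86, 3.53 and 1.94 CPM at 12 weeks. Every 10- and 12-week library was above every 8-week library, and the 12-week libraries, from 1.94 to 9.72 CPM, spanned the whole of the 10-week range. The 12-week mean was 4.29 times the 8-week one in the fit (log2 fold change 2.10 ± 0.43 SE, adjusted p = 0.0649), short of the threshold. At 10 weeks the difference from 8 weeks was of similar size (log2 fold change 1.65 ± 0.43 SE, adjusted p = 0.147). The 12 against 8 weeks difference depended on the tool: DESeq2 gave an adjusted p of 0.000208 and a fit over all 36 libraries 0.000377, within a range of 0.000208 to 0.146 over 11 other settings. Leaving out single libraries gave adjusted p between 0.0219 and 0.183, passing in 1 of 12 cases, and without the highest library, 12-week replicate 1, the log2 fold change was 1.60, adjusted p = 0.121. The counts behind these levels were low, from 15 to 33 pairs per library at 8 weeks and from 40 to 224 at 12 weeks. With both strands summed, the log2 fold change was 2.08 ± 0.44 (SE, adjusted p = 0.0701). Unmapped pairs made up 2.81 to 6.96% of the 8-week liver libraries, 6.50 to 13.0% at 10 weeks and 6.46 to 9.51% at 12 weeks, and B and plasma cell markers summed to 4.28 to 7.68, 5.65 to 19.1 and 7.38 to 22.4 CPM. Their part in the Gadd45a difference was not tested.

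The paralogs Gadd45b and Gadd45g did not share this order in liver. Gadd45b, the member induced by TGF-beta and NF-kB, read 2.61, 3.28, 4.51 and 2.81 CPM at 8 weeks, 3.27, 7.72, 0.929 and 0.875 CPM at 10 weeks and 15.6, 1.30, 2.12 and 2.91 CPM at 12 weeks. The single 12-week library at 15.6 CPM stood above all other livers, while the 10-week livers formed a pair below 1 CPM and a pair above 3 CPM. Gadd45g, the cytokine-responsive member, read 52.96, 81.0, 68.0 and 70.8 CPM, 60.1, 82.5, 34.0 and 128 CPM and 78.6, 94.9, 13.2 and 21.8 CPM. Its spread widened after 8 weeks, where the livers lay between 52.96 and 81.0 CPM, and the ages overlapped. Between 12 and 8 weeks neither passed the test, Gadd45b having a log2 fold change of 0.75 ± 0.78 (SE, adjusted p = 0.696) and Gadd45g a log2 fold change of -0.39 ± 0.52 (SE, adjusted p = 0.771).

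Among the Polo-like kinases, Plk3 was a well expressed liver transcript with wide ranges at each age, and Plk2 was steadier. Plk3 read 82.5, 67.0, 98.2 and 145 CPM at 8 weeks, 102, 117, 51.9 and 91.2 CPM at 10 weeks and 185, 158, 64.7 and 58.7 CPM at 12 weeks. The 12-week livers split into 2 libraries above 150 CPM and 2 below 65 CPM, and no age stood apart (log2 fold change 0.24 ± 0.37 SE, adjusted p = 0.805). Plk2 read 14.8, 8.48, 7.38 and 8.25 CPM, 17.3, 10.2, 15.9 and 11.6 CPM and 13.4, 9.80, 14.6 and 11.9 CPM. Of its 8-week values, 3 were below every 10- and 12-week value, and replicate 1 at 14.8 CPM lay within them. At 10 against 8 weeks its difference was a log2 fold change of 0.49 ± 0.24 (SE, adjusted p = 0.372), and at 12 against 8 weeks it was a log2 fold change of 0.34 ± 0.24 (SE, adjusted p = 0.524).

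Btg1, Btg2 and Ier3 varied widely among livers of 1 age, and no age stood apart. Btg1 ranged from 45.2 to 59.7 CPM at 8 weeks, from 50.3 to 78.1 CPM at 10 weeks and from 32.9 to 115 CPM at 12 weeks. Btg2 read 20.7, 16.6, 22.9 and 46.1 CPM, 28.5, 45.3, 15.1 and 13.8 CPM and 43.6, 13.6, 14.3 and 12.2 CPM, so that each age held at least 1 library above 43 CPM and others between 12.2 and 28.5 CPM. Ier3 was close to the limit of counting in liver, with 2 to 88 pairs per library and levels between 0.0961 and 3.82 CPM. The 12 against 8 weeks differences were a log2 fold change of 0.28 ± 0.30 (SE, adjusted p = 0.711) for Btg1, a log2 fold change of -0.34 ± 0.49 (SE, adjusted p = 0.791) for Btg2 and a log2 fold change of 1.14 ± 0.97 (SE, adjusted p = 0.620) for Ier3. Without 12-week replicate 1 the direction turned for 4 of the genes, to log2 fold changes of -0.66 for Gadd45b, -0.09 for Plk3, -0.20 for Btg1 and -0.90 for Ier3, and that of Btg2 was -0.998 without it and 0.06 without 8-week replicate 4. For Gadd45g the extremes were -0.84, with 12-week replicate 2 left out, and -0.07, with 12-week replicate 3 left out. For Noct they were -1.19 and -0.50, on omission of 12-week replicates 4 and 2.

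Noct was highest in 8-week livers. It read 113.5, 139, 134 and 109 CPM at 8 weeks, 61.0, 73.9, 34.5 and 53.6 CPM at 10 weeks and 62.8, 29.2, 71.7 and 127 CPM at 12 weeks. All 10-week livers were below all 8-week livers, whereas 12-week replicate 4 reached the 8-week range. The fitted 10-week level was 0.449 of the 8-week level (log2 fold change -1.15 ± 0.34 SE, adjusted p = 0.173), which did not pass, and the 12-week difference was smaller (log2 fold change -0.77 ± 0.34 SE, adjusted p = 0.311). DESeq2 and the fit over 36 libraries placed the 10-week difference at adjusted p of 0.0314 and 0.0375, in a range of 0.00463 to 0.210 over 11 settings. In liver, Gadd45a at 12 against 8 weeks was 1 of 9 genes without overlap between ages, as were 7.95% of all genes. At 10 against 8 weeks Gadd45a and Noct made 2 of 9, against 9.47%, and at 12 against 10 weeks there was none of 9, against 8.09%.

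In kidney, Plk3, Noct and Gadd45g had an unadjusted p under 0.05 in both comparisons with 8 weeks, with lower values at 10 and 12 weeks. Gadd45b, Plk2 and Btg2 also had one at 10 against 8 weeks, with higher values (log2 fold changes of 0.43, 0.38 and 0.40), and Btg1 and Btg2 at 12 against 10 weeks, with lower values (-0.31 and -0.41). Plk3 read 16.0, 25.5, 30.6 and 27.7 CPM at 8 weeks, 6.87, 16.4, 7.61 and 9.12 CPM at 10 weeks and 7.51, 5.12, 12.2 and 12.7 CPM at 12 weeks. All 12-week kidneys were below all 8-week kidneys, and 3 of the 4 at 10 weeks were too, with 10-week replicate 2 above 8-week replicate 1. The fitted levels at 12 and 10 weeks were 0.375 and 0.406 of that at 8 weeks with a log2 fold change of -1.41 ± 0.30 (SE, adjusted p = 0.121) and a log2 fold change of -1.30 ± 0.30 (SE, adjusted p = 0.0573). Neither passed the threshold in edgeR. DESeq2 called both, with adjusted p of 0.0305 and 0.0200, within ranges of 3.84e-14 to 0.193 and 2.14e-12 to 0.0726 over 11 settings, the lowest of which came from testing without a filter on low counts. Without that filter the 12- and 10-week log2 fold changes were -1.42 ± 0.14 and -1.31 ± 0.14 (SE). The lower p thus came with a smaller SE at nearly the same change. Without 10-week replicate 2 the 10-week difference was -1.65, adjusted p = 0.0202.

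Noct overlapped between ages in a similar way. It read 27.9, 57.1, 60.2 and 34.8 CPM, 13.6, 32.1, 12.6 and 14.8 CPM and 16.7, 8.29, 19.4 and 19.2 CPM at 8, 10 and 12 weeks. Again every 12-week kidney lay below every 8-week kidney, and 10-week replicate 2 was the only 10-week library inside the 8-week range. The fitted fractions of the 8-week level were 0.354 at 12 weeks (log2 fold change -1.50 ± 0.33 SE, adjusted p = 0.141) and 0.413 at 10 weeks (log2 fold change -1.28 ± 0.33 SE, adjusted p = 0.0787). DESeq2 gave adjusted p of 0.0402 and 0.0462, within 8.30e-15 to 0.259 and 9.21e-12 to 0.107 over 11 settings, the lowest again without that filter. Over the 12 kidneys, log2 CPM of Plk3 and Noct had a Pearson r of 0.96, which describes libraries that include the age differences, and the r was -0.20 in liver and -0.11 in heart.

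Gadd45g read 36.3, 42.4, 55.5 and 41.1 CPM in the 8-week kidneys, 18.3, 24.9, 19.8 and 35.4 CPM at 10 weeks and 36.8, 24.5, 19.4 and 16.2 CPM at 12 weeks. The 10-week kidneys were below the 8-week ones, the nearest pair being 35.4 and 36.3 CPM, and at 12 weeks 3 of 4 were, with replicate 1 at 36.8 CPM. The differences were a log2 fold change of -0.81 ± 0.24 (SE, adjusted p = 0.112) at 10 weeks and a log2 fold change of -0.85 ± 0.24 (SE, adjusted p = 0.229) at 12 weeks. Plk3 and Noct at 12 against 8 weeks made 2 of 9 genes without overlap, against 6.49% of all genes. Gadd45g at 10 against 8 weeks made 1 of 9, against 8.98%, and at 12 against 10 weeks none of 9 did, against 9.13%.

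Between the youngest and oldest kidneys the other 6 genes had log2 fold changes from -0.26 for Ier3 to 0.14 for Plk2. Gadd45a read 9.90, 5.04, 6.02 and 4.997 CPM at 8 weeks and 4.56, 4.87, 5.84 and 6.51 CPM at 12 weeks, and 8-week replicate 1 was the only library outside the range of the other age on the high side. Gadd45b stayed between 1.85 and 3.67 CPM and Plk2 between 6.35 and 11.8 CPM. Btg1 ranged from 46.8 to 78.1 CPM, Btg2 from 11.4 to 22.3 CPM and Ier3 from 6.07 to 11.7 CPM. The highest Btg1, Btg2, Gadd45b, Plk2 and Ier3 values of the tissue were all in 10-week libraries. Of the 17649 genes tested in kidney, 8.98%, 9.60%, 9.11% and 5.47% were highest in 10-week replicates 1, 2, 3 and 4. For Btg2 the 10-week difference was a log2 fold change of 0.40 ± 0.15 (SE, adjusted p = 0.190) against 8 weeks, and a log2 fold change of -0.41 ± 0.15 (SE, adjusted p = 0.177) between 12 and 10 weeks.

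In heart Ier3 fell. It read 24.5, 22.2, 19.0 and 19.6 CPM at 8 weeks, 11.4, 17.9, 11.5 and 15.3 CPM at 10 weeks and 13.3, 11.1, 11.2 and 19.6 CPM at 12 weeks. All 10-week hearts were below all 8-week hearts, and so were 3 of the 12-week hearts, while 12-week replicate 4 was level with 8-week replicate 4. The 12-week level was 0.642 of the 8-week level (log2 fold change -0.64 ± 0.17 SE, adjusted p = 0.0441), and the difference at 10 weeks was of similar size but did not pass (log2 fold change -0.61 ± 0.17 SE, adjusted p = 0.0997). The call depended on single libraries: it remained in 4 of 12 fits that left out a library, with adjusted p from 0.00588 to 0.126, and in 9 of 11 other settings, with adjusted p from 1.90e-06 to 0.405. With both strands summed the log2 fold change was -0.55 ± 0.15 (SE, adjusted p = 0.0488). The 16 immediate early genes, a list without Ier3, summed to 525 to 602 CPM in the 8-week hearts, 361 to 525 CPM at 10 weeks and 319 to 387 CPM at 12 weeks, and red cell markers to 346 to 459, 346 to 813 and 185 to 577 CPM. Fibroblast markers summed to 728 to 768 CPM at 8 weeks, 837 to 1080 CPM at 10 weeks and 783 to 911 CPM at 12 weeks, and neutrophil markers to 1.88 to 3.33, 1.70 to 12.0 and 0.0795 to 2.31 CPM. Their part in the Ier3 difference was not tested.

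No other heart difference passed. Plk3, a minor transcript in heart at 21 to 55 pairs per library, read 2.35, 1.62, 1.83 and 2.19 CPM at 8 weeks, 2.25, 2.14, 1.81 and 2.05 CPM at 10 weeks and 1.03, 1.74, 0.827 and 1.51 CPM at 12 weeks. All 12-week hearts were below all 10-week hearts (log2 fold change -0.69 ± 0.23 SE, adjusted p = 0.274), and the 12 against 8 weeks log2 fold change of -0.64 became -0.40 with both strands summed. Gadd45b read 5.51, 11.8, 11.3 and 15.1 CPM, 10.4, 10.5, 10.6 and 10.97 CPM and 14.9, 14.4, 15.3 and 13.6 CPM. The 10-week hearts lay close together, from 10.4 to 10.97 CPM, and below all 12-week hearts (log2 fold change 0.45 ± 0.19 SE, adjusted p = 0.362). Plk2 was 36.1, 17.2, 16.6 and 17.4 CPM in the 8-week hearts and between 25.0 and 30.5 CPM at 12 weeks. Replicate 1 stood apart from the other 3 at 8 weeks, and without it the 12 against 8 weeks difference passed (0.69, adjusted p = 0.00625, compared with log2 fold change 0.33 ± 0.20 SE, adjusted p = 0.323 with it). The same 8-week library was the lowest of all hearts for Gadd45b, at 5.51 CPM, and for Noct, at 45.1 CPM. It was the highest heart for 5 of the 9 genes and for 12.5% of the 15137 genes tested, and the lowest for 12.7% of them. Gadd45a, Gadd45g, Btg1, Btg2 and Noct had overlapping ranges at 8 and 12 weeks. Without overlap were 0 of 9 genes at 12 against 8 weeks (12.7% of all genes), 1 of 9 at 10 against 8 weeks, Ier3 (9.73%), and 2 of 9 at 12 against 10 weeks, Gadd45b and Plk3 (6.08%).

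**Figure D2:**
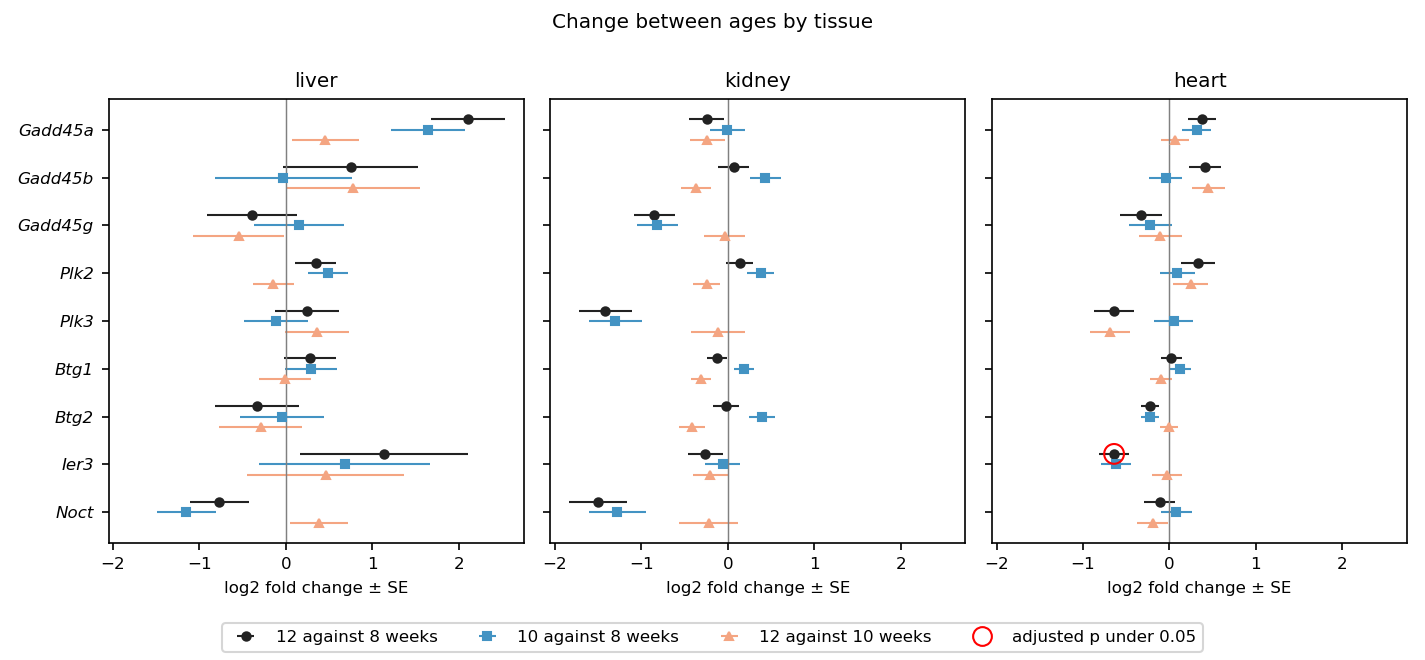
Log2 fold change (x axis) ± SE of each gene (y axis) for 3 comparisons of ages in liver, kidney and heart, from edgeR fits of 12 libraries each. The point with adjusted p under 0.05, Ier3 in heart at 12 against 8 weeks, is circled, while the largest difference, liver Gadd45a at 2.10, has a wider error and does not pass.

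The tissues were compared in how far a gene changed with age by an interaction term in a fit of the 36 libraries. That fit gives each gene 1 estimate of spread for all tissues. For Gadd45a the SD of log2 CPM within ages was 0.63 in liver, 0.33 in kidney and 0.25 in heart. The SE of its 12 against 8 weeks change in liver was 0.34 in that fit and 0.43 in the fit of livers alone. The 12 against 8 weeks change of Gadd45a was higher in liver than in kidney by 2.36 ± 0.43 on the log2 scale (SE, adjusted p = 0.00938), a ratio of 5.12, and it was 1 of 9 genes to differ, against 0.304% of 19716 genes. It was higher in liver than in heart by 1.72 ± 0.44 (SE, adjusted p = 0.0221), also 1 of 9, against 4.16% of genes. Against kidney, the difference passed in 36 of 36 fits that left out a library and in 8 of 9 other settings, limma-voom giving adjusted p = 0.0503 in a range that started at 8.26e-12. Against heart it passed in 35 of 36 and in 8 of 9, failing without liver 12-week replicate 1 (log2 difference 1.24, adjusted p = 0.0705) and with limma-voom (1.52, adjusted p = 0.0904), the lowest being 1.89e-06. With both strands summed the differences were 2.38 ± 0.43 (SE, adjusted p = 0.00879) and 1.93 ± 0.44 (SE, adjusted p = 0.00988).

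None of the other 8 genes passed this test at 12 against 8 weeks between liver and kidney or between liver and heart, where 2 and 2 of the 9 had an unadjusted p under 0.05 (11.2% and 18.4% of all genes). Plk3 came nearest, its change being higher in liver by 1.67 ± 0.45 on the log2 scale (SE, adjusted p = 0.0866). For kidney against heart, 0 of 9 genes differed in their 12-week change (0.112% of all genes) and 0 of 9 in their 10-week change (0.198%), Noct having the lowest p in both, with log2 differences of -1.40 ± 0.46 (SE, adjusted p = 0.240) and -1.38 ± 0.46 (SE, adjusted p = 0.324). The 10-week changes differed for 0 of 9 genes between liver and kidney (0.0558%) and between liver and heart (1.09%). At an unadjusted p under 0.05 there were 2 and 2 of 9 genes in those comparisons (9.44% and 14.5% of all genes) and 1 and 2 for kidney against heart (11.1% and 7.94%). These fits treat libraries as unpaired. With the replicate number as a block in the edgeR fit, Noct passed for kidney against heart at 12 and 10 weeks (-1.44 and -1.42, adjusted p = 0.0272 and 0.0333). It also passed there for the 10-week change of liver against heart (-1.28, adjusted p = 0.0234).

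Most of the genes had levels that differed between tissues, as did most of all genes tested. Averaged over ages, 7 of 9 differed between liver and kidney, 7 between liver and heart and 8 between kidney and heart, where 83.1%, 84.2% and 86.1% of 19716 genes did. At an unadjusted p under 0.05 there were 8, 7 and 8, against 83.7%, 84.6% and 86.5%. Libraries of the 2 tissues did not overlap for 2, 2 and 6 of the 9 genes, against 49.5%, 53% and 57.6% of all genes.

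Plk3 and Gadd45g were liver-high. Plk3 ranged from 51.9 to 185 CPM with a median of 94.7 in liver, from 5.12 to 30.6 CPM with a median of 12.5 in kidney and from 0.827 to 2.35 CPM with a median of 1.82 in heart, with no overlap between any pair of tissues. Its log2 level was higher in liver than in heart by 5.86 ± 0.24 and than in kidney by 2.93 ± 0.19 (SE, adjusted p = 7.54e-22 and 9.62e-16). Gadd45g had medians of 69.4, 30.2 and 8.62 CPM in liver, kidney and heart. Liver and kidney overlapped, since 12-week livers went down to 13.2 CPM, but every kidney was above every heart. Its log2 differences were 1.12 ± 0.23 between liver and kidney and 1.66 ± 0.24 between kidney and heart (SE, adjusted p = 3.96e-05 and 1.59e-07).

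The reverse order held for Ier3, with ranges of 11.1 to 24.5 CPM in heart, 6.07 to 11.7 CPM in kidney and 0.0961 to 3.82 CPM in liver. Kidney and heart touched at 11 to 12 CPM, and every liver was below every kidney. The log2 difference was -3.37 ± 0.29 between liver and kidney and -0.91 ± 0.22 between kidney and heart (SE, adjusted p = 1.38e-12 and 0.000298). Gadd45b, Plk2 and Btg2 were heart-high relative to kidney, with medians of 11.5 against 2.59 CPM, 25.3 against 8.18 CPM and 30.2 against 12.7 CPM and no overlap. Liver lay in between for Plk2, at a median of 11.8 CPM, and for Btg2, at 18.7 CPM, for which the difference between liver and heart did not pass (log2 difference -0.31 ± 0.18, SE, adjusted p = 0.11302). It passed with the replicate number as a block (-0.42, adjusted p = 0.0155), with limma-voom (-0.47, 0.0122), without a count filter (-0.33 with a smaller SE of 0.08, 0.000236) and in 3 of 36 fits that left out a library, among them liver 12-week replicate 1 (-0.53, 0.00212). For Gadd45b the difference between liver and kidney did not pass (0.61 ± 0.29, SE, adjusted p = 0.0572). It passed without a count filter (0.56 with a smaller SE of 0.13, 5.51e-05) and in 5 of 36 fits that left out a library, with adjusted p down to 0.0185 (0.71), and without liver 12-week replicate 1 it was 0.14 (0.579).

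Btg1 was lower in heart, at 24.6 to 38.9 CPM, than in kidney, at 46.8 to 78.1 CPM, and the difference between liver and kidney did not pass (log2 difference 0.05 ± 0.12, SE, adjusted p = 0.717). Noct was lower in kidney, with a median of 19.3 CPM against 72.8 in liver and 66.8 in heart, and the latter pair did not differ by the test (0.25 ± 0.19, SE, adjusted p = 0.206). Gadd45a was lower in liver, with a median of 3.12 CPM against 5.91 in kidney and 6.77 in heart. That ordering belonged to the 8-week livers above all, whose highest value of 1.66 CPM was below the lowest kidney at 4.56 CPM, whereas the 12-week livers, at 1.94 to 9.72 CPM, overlapped the kidney range of 4.56 to 9.90 CPM. Kidney and heart did not differ by the test (-0.23 ± 0.16, SE, adjusted p = 0.177).

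Per kilobase of the canonical transcript, Gadd45g stood first of the 9 in liver, at a median of 64.8 CPM per kb, followed by Plk3 at 38.8, Btg1 at 10.3 and Noct at 7.42. In kidney Gadd45g again led at 28.2 CPM per kb, ahead of Btg1 at 11.4 and Ier3 at 7.50, and in heart Ier3 led at 14.6 CPM per kb, ahead of Btg2 at 11.002 and Gadd45b at 8.99. Plk3 was the last of the 9 in heart at 0.744 CPM per kb, and Ier3 the last in liver at 0.571. The first 3 places in heart depend on the length used: per kilobase of all annotated exons Ier3 stayed first, but Gadd45g and Btg1 came next. The per-length level of Noct is the least certain, because the transcript marked canonical starts 15759 bases downstream of the RefSeq start.

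**Figure D3:**
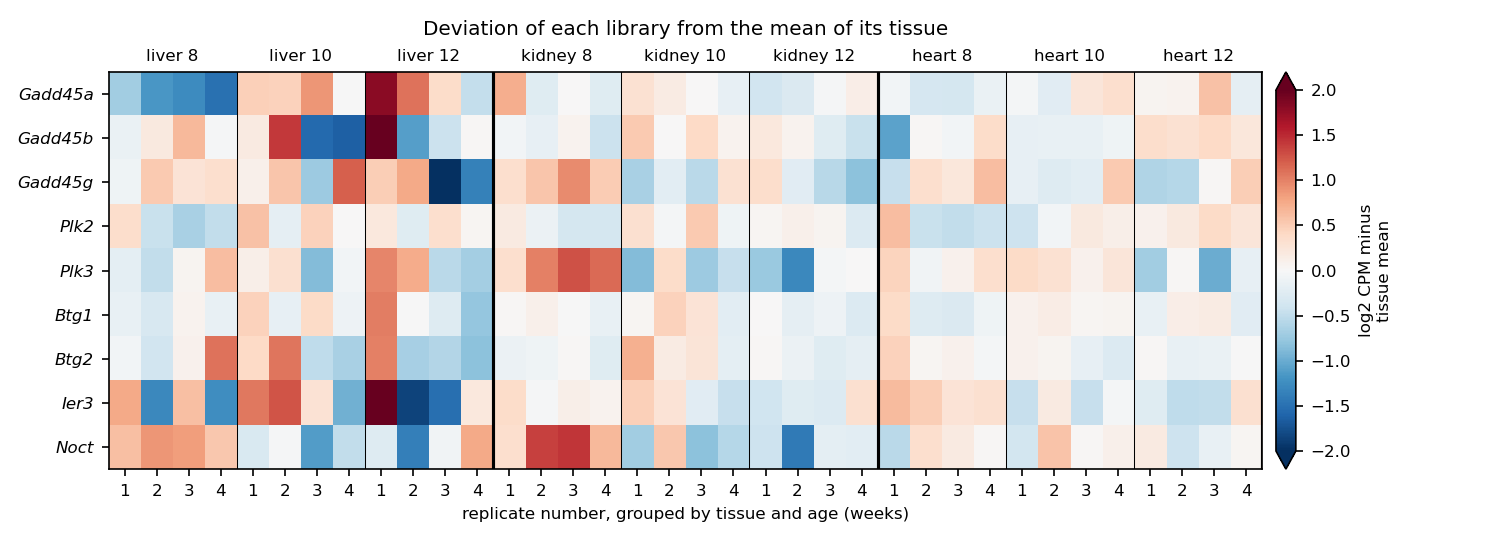
Log2 CPM minus the mean of its tissue (colour, blue below and red above, limited to 2) for the 9 genes in rows and the 36 libraries in columns, grouped by tissue and age. Liver 12-week replicate 1 is above its tissue mean for most of the genes, and the 8-week kidneys share high Plk3, Noct and Gadd45g.

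A single liver stood out across several genes at once. Liver 12-week replicate 1 had the highest value of the 12 livers for Gadd45a, Gadd45b, Plk3, Btg1 and Ier3, 5 of the 9 genes, and was highest for 11.6% of the 14672 genes tested in liver. It was the lowest liver for 0 of the 9 genes and for 14.8% of all genes tested. The 16 immediate early genes, such as Fos and Egr1, summed to 812 CPM in that library, against 347 to 540 CPM in the other 12-week livers, 557 to 732 CPM at 10 weeks and 406 to 500 CPM at 8 weeks. How far this library's state bears on the liver differences was not tested beyond leaving it out, which gave the values above. The 12-week kidneys held the lowest value of the tissue for 7 of the 9 genes, and 12-week replicate 4 alone for 3. Of the 17649 genes tested in kidney, 5.50%, 8.54%, 7.45% and 7.77% were lowest in 12-week replicates 1, 2, 3 and 4. Markers of B and plasma cells summed to 8.62 to 19.4 CPM in the 12-week kidneys and to 3.39 to 6.25 CPM at 8 and 10 weeks, and their part in the kidney differences was not tested.

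The spread between animals of 1 age was itself large for these genes. In liver the SD of log2 CPM within ages ran from 0.37 for Plk2 to 1.43 for Ier3, against a median of 0.25 over all genes. Compared with genes of like level, 8 of the 9 were above the 90th percentile and Plk2 was at the 85.2nd. The median SD of such genes was 0.15 for Gadd45g, which had 0.93, and 0.14 for Plk3, which had 0.64. In kidney, Noct had an SD of 0.58 and Plk3 of 0.54, at the 99.6th and 99.1st percentiles of genes of like level, whereas Gadd45b at 0.26 was at the 62nd. In heart the SD stayed between 0.17 for Btg2 and 0.45 for Gadd45g, and Plk3 at 0.31 was at the 45.1st percentile of its level. With 4 animals a group, an SD of this size in liver leaves a standard error of 0.43 for the 12 against 8 weeks change of Gadd45a and of 0.97 for that of Ier3.

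**Figure D4:**
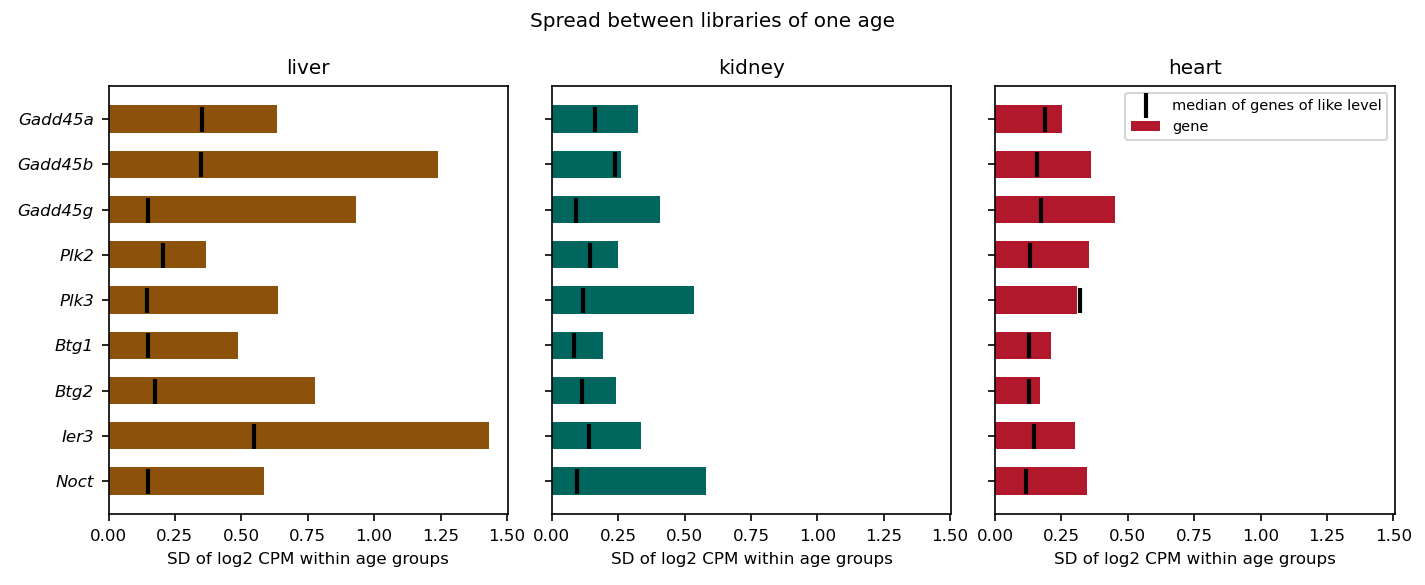
SD of log2 CPM within age groups (x axis, bars from 0) for the 9 genes in liver, kidney and heart, with a tick at the median of genes of like level. Bars exceed the tick except for Plk3 in heart, by most for liver Gadd45b, Gadd45g and Ier3.

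The genes whose levels ran most like those of each member were ranked by Pearson r of log2 CPM over 36 libraries after subtraction of tissue means, among 12537 genes kept in all tissues, as a description that mixes age and animal differences. Noct was nearest to Polr3e, Per1 and Tob2 (r = 0.76, 0.75 and 0.75), and within kidney these r were 0.93, 0.90 and 0.91. Per1 is a core clock repressor and Tob2 belongs to the BTG family. Plk3 was nearest to Kdm7a, Polr3e and Hmox1 (0.66, 0.66 and 0.63), with r of 0.93 in kidney and -0.15 in liver for Polr3e. Gadd45a was nearest to Stat5a, Arrdc3 and Nfyb (0.83, 0.82 and 0.81), with r of 0.94 in liver but -0.08 in kidney and 0.16 in heart for Stat5a, a growth hormone and cytokine signal transducer.

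Gadd45b ran closest to Txnrd1 and Synpo (0.79 and 0.78) and Gadd45g to Wasf2, Cdc14a and Garre1 (0.62 for each). The nearest genes were Kif20b, Tnfaip2 and Nr1d1 for Plk2 (0.68, 0.68 and 0.66), Tgif1, Cxadr and Relb for Btg1 (0.80, 0.78 and 0.74), Dusp8, Mrtfa and Litaf for Btg2 (0.80, 0.78 and 0.77), and Atf3, Actg1 and Flnc for Ier3 (0.74, 0.73 and 0.73). For Gadd45b, Btg2 and Ier3 the likeness came from liver, with r there of 0.89, 0.88 and 0.85 to the nearest gene and at most 0.34 in kidney and heart. Among the members, the highest r over the 36 libraries was 0.63, between Gadd45b and Btg2, and the sign was not shared by all tissues (0.73 in liver, 0.81 in kidney and -0.70 in heart). Noct and Gadd45a had r of -0.79 in liver, 0.10 in kidney and -0.34 in heart.

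Partners and relatives of these proteins gave 1 call. Of 13 Gadd45 partners, among them Map3k4, Mapk14, Pcna and Cdkn1a, 0 passed in each of the 9 comparisons of ages, while 2, 3 and 3 had an unadjusted p under 0.05 in liver, 1, 3 and 4 in kidney and 7, 4 and 1 in heart (12 against 8, 10 against 8 and 12 against 10 weeks). The shares of all genes at that p were 15.1%, 14.3% and 14.1% in liver, 11.7%, 16.5% and 16.4% in kidney and 23.4%, 15.8% and 11.7% in heart. Of the 11 CCR4-NOT subunits and of the 5 nocturnin-related nucleases, 0 passed in the 9 comparisons. The unadjusted counts ran from 0 to 4 and from 0 to 2, beside the same shares. Plk4 and Plk5 did not pass in any tissue, and Plk1, the mitotic kinase, was tested in kidney and did not pass there. Of Btg3, Tob1 and Tob2, 1 passed in 1 comparison: Tob2 fell from 90.6 ± 18.3 to 49.7 ± 7.36 CPM between 8 and 10 weeks in kidney (SD, n = 4, log2 fold change -0.84 ± 0.15 SE, adjusted p = 0.0212). In that comparison 0.929% of 17649 genes passed.

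Lists of genes that answer stress, hormones and daylight were counted in the same fits. In heart at 12 against 8 weeks, 5 of 15 immediate early genes tested fell and 0 rose, with a median log2 fold change of -0.37 against 0.00 over all genes, of which 4.56% passed in either direction. They were Nr4a1 (log2 fold change -2.42, adjusted p = 0.00160), Klf2 (log2 fold change -1.16, adjusted p = 0.00203), Dusp1 (log2 fold change -0.66, adjusted p = 0.00330), Fosl2 (log2 fold change -0.74, adjusted p = 0.00893) and Atf3 (log2 fold change -1.06, adjusted p = 0.0310). Of 11 glucocorticoid-induced genes 4 fell, Dusp1 again, Ddit4 (log2 fold change -1.29, adjusted p = 0.0204), Tsc22d3 (log2 fold change -0.61, adjusted p = 0.0348) and Errfi1 (log2 fold change -0.61, adjusted p = 0.0364), with a median of -0.61 and the same 4.56% of all genes beside it. Of 17 p53 target genes Trp53inp1 fell (log2 fold change -0.83, adjusted p = 0.0343) and 0 rose, and of 13 proliferation genes Cenpf and Mcm3 rose (log2 fold change 1.07, adjusted p = 0.0118 and log2 fold change 0.55, adjusted p = 0.0432). At 10 against 8 weeks in heart, 1 of 15 immediate early genes passed, Ier5, which fell (log2 fold change -0.47, adjusted p = 0.0429), against 1.06% of all genes.

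In liver and kidney 0 of the 18 p53 targets and 0 of the proliferation genes passed in any comparison of ages, where 0.0204% to 0.929% of all genes did. At an unadjusted p under 0.05 there were 0 to 3 and 1 to 2 of them, against 11.7% to 16.5% of all genes. In liver Sgk1, a glucocorticoid-induced kinase, fell between 8 and 12 weeks (log2 fold change -0.65, adjusted p = 0.0312), 1 of 12 genes of its list, against 0.239% of all genes. In kidney Ddit4, an inhibitor of mTORC1, fell between 8 and 12 weeks (log2 fold change -1.36, adjusted p = 0.0469), 1 of 10, against 0.0567% of all genes. The immediate early gene Egr1 rose in kidney at 10 against 8 weeks (log2 fold change 2.06, adjusted p = 0.0441), 1 of 16, against 0.929% of all genes. Of its list 13 of 16 then lay on the high side, with a median log2 fold change of 0.58 against 0.002 over all genes. In the same comparison 14 of 16 did in liver (median 0.56) and 6 of 15 in heart (median -0.11). Zfp36, whose protein destabilizes mRNAs, fell at 12 against 10 weeks (log2 fold change -0.59, adjusted p = 0.0459), 1 of 16, against 0.482%. At that comparison 16 of 16 lay on the low side in kidney, with a median of -0.48 against -0.0009 over all genes. In liver 8 of 16 did (median -0.09) and in heart 13 of 15 (median -0.50). Of the clock genes, 17 tested in liver and 18 in kidney and heart, 0 passed in the 9 comparisons. At an unadjusted p under 0.05 and 10 against 8 weeks there were 9, 10 and 11 of them in liver, kidney and heart, against 14.3%, 16.5% and 15.8% of all genes. The numbers were 5, 4 and 5 at 12 against 8 weeks, against 15.1%, 11.7% and 23.4%. They were 5, 5 and 6 at 12 against 10 weeks, against 14.1%, 16.4% and 11.7%. Summed clock levels were 1212 to 1334 CPM in the 10-week livers and 1273 to 1500 CPM in the 8-week livers, and 769 to 1084 CPM in the 10-week kidneys, below the 1110 to 1209 CPM of the 8-week kidneys. The heart sums overlapped, at 791 to 1149 CPM at 10 weeks and 1032 to 1129 CPM at 8 weeks. The hour at which organs were taken is not given in the sources used here, and its part in these values was not tested.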

How the data were processed

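Gene counts of 36 polyA libraries were analysed as the authors deposited them, 1 table per library holding read pair counts per Ensembl gene in 1 column without regard to strand and 1 column for each strand. Per the submitters' processing notes and the study's methods, reads were checked with FastQC 0.11.9, trimmed with cutadapt 4.2 and aligned with STAR 2.7.11b to GRCm39, which also counted the pairs per gene. The strand columns each held close to equal shares, so the column that ignores strand was used. Multimapping pairs, 6.26 to 19.1% of a library, and pairs on overlapping genes were not counted. Rows that name no gene were left out of library sizes. No column of another series was present (0).

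Within each tissue, genes with a mean count of at least 10 in an age group and counts above 0 in at least 2 libraries of that group were kept and tested with edgeR 4.0.16 (R 4.3.3), using TMM scaling, the quasi-likelihood test and Benjamini-Hochberg adjustment at 0.05. The differences between tissues came from 1 fit of the 36 libraries. All tests were two-sided, and standard errors were derived from the fitted change and its test statistic. For correlations and spread, log2 CPM used a prior count of 2. Alternatives were DESeq2 1.42.0, limma-voom (limma 3.58.1), other scaling and filters, each strand column and each library left out, and both strand columns summed was added after the data were seen. The 9 genes were named throughout. From other lists up to 5 called genes per comparison were named, and for each member the 3 genes of highest r, of which 1 is not reported here. Members and lists were chosen with earlier results of these data known. The replicates are biological, and the p-values judge differences between group means against the spread between these libraries. Promoter windows were taken from RefSeq, and protein sequences were not used here.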

Additional observations from a re-analysis of the deposited data

Results flagged for a closer look

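By Dixon's test on log2 CPM, a single library lay outside the allowed range in 4 of 81 groups of 4 libraries. About 1 in 20 groups, or 4.05 here, would be flagged by chance. The count holds for the log2 scale, and the values below are given in CPM. Gadd45g in heart 10-week replicate 4 was the high one at 13.0 CPM, the other 3 hearts of that age lying between 7.56 and 8.07 CPM. Plk2 in heart 8-week replicate 1 was at 36.1 CPM, against 16.6 to 17.4 CPM in the others, and Plk2 in kidney 12-week replicate 4 was low at 6.72 CPM, against 8.43 to 8.72 CPM. Btg2 in liver 12-week replicate 1 was at 43.6 CPM, against 12.2 to 14.3 CPM.

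The change of Gadd45a between 8 and 12 weeks differed between tissues by the interaction term of the edgeR quasi-likelihood fit with Benjamini-Hochberg adjustment. It was higher in liver than in kidney by 2.36 on the log2 scale (adjusted p = 0.00938) and than in heart by 1.72 (adjusted p = 0.0221). All 4 of the 12-week livers were above all 4 of the 8-week livers, while the kidney and heart ranges at these ages overlapped.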

How the results depend on the processing

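No tested value that passed the threshold changed sign under any alternative run. Of all recomputed values 5346 were classed as unchanged, 74 moved, 75 gained the call and 13 lost it. Unchanged here means the same call and, for values not called, a shift smaller than the SE. Values not called could thus change sign and still be classed as unchanged. The counts of genes called moved as follows, in the order 12 against 8, 10 against 8 and 12 against 10 weeks where all apply. With DESeq2, liver had 1 and 2, kidney 2 and 2, and heart 1 at 10 against 8 weeks. Without a count filter, which admits many more genes and gave the added calls a smaller SE, liver had 1 and 2, kidney 3, 4 and 2, and heart 2, 1 and 1. A fit over all 36 libraries gave 1 and 2 in liver and 0 in heart at 12 against 8 weeks. At that comparison heart also had 0 with a log2 fold change beyond 1 required and 0 with the first strand column. In kidney at 10 against 8 weeks, limma-voom and the second strand column gave 1 each. For the 12-week change between tissues, limma-voom gave 0 for liver against kidney and 0 for liver against heart, and no filter gave 4, 3 and, for kidney against heart, 1. For the 10-week change, DESeq2 gave 1 for liver against kidney and 1 for liver against heart, and no filter gave 3, 3 and, for kidney against heart, 2. Apart from fewer or more genes and libraries in the fit, the cause was not tested. Summing both strands, chosen after seeing the data, moved none of these counts.

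Leaving out single libraries gave ranges of 0 to 1 for liver at 12 against 8 weeks, 0 to 2 for kidney at 10 against 8 and at 12 against 10 weeks, 0 to 1 for heart at 12 against 8 and at 10 against 8 weeks, 1 to 2 for the 12-week change of liver against kidney, 0 to 1 for its 10-week change, and 0 to 1 for the 12-week change of liver against heart. For levels over all ages the ranges were 7 to 8 for liver against kidney, 7 to 8 for liver against heart and 8 to 8 for kidney against heart. Kidney 10-week replicate 4 decided the upper end at 12 against 10 weeks, Btg1 and Btg2 having adjusted p of 0.0398 and 0.0395 without it. Without it, Gadd45g (0.0429) and Btg2 (0.0487) passed at 10 against 8 weeks. Ier3 in heart at 12 against 8 weeks lost its call without any 1 of the 4 libraries of 8 weeks, replicate 4 of 10 weeks, or replicates 1, 2 or 3 of 12 weeks.

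With the replicate number as a replicate block, the counts were 1 for the 10-week change of liver against heart (Noct, adjusted p = 0.0234), 1 for the 12-week change of kidney against heart (Noct, 0.0272) and 1 for its 10-week change (Noct, 0.0333), and the block changed no other count of age comparisons. For levels over all ages the block gave 8 for liver against heart (7 without it). Deviations of same-numbered libraries had r of 0.0327 to 0.164 between liver and kidney, -0.00884 to 0.0813 between liver and heart and 0.0139 to 0.103 between kidney and heart. The best match of a library among those of its age carried its own number in 12, 7 and 10 of 12 cases. Each match was chosen among the 4 libraries of that age. The matches point to shared animals from the data and not from the design, and the small r do not show that the libraries are unpaired. The labels give no pairing, so the main tests between tissues treated all libraries as independent. Within a tissue, r between same-numbered libraries ran from -0.265 to 0.171.

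Depth limits Ier3 in liver (2 to 88 pairs), Gadd45a in 8-week liver (15 to 33) and Plk3 in heart (21 to 55), and with 4 libraries a group the spread within ages limits the liver comparisons.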
